A study of Mus musculus with 2 samples.

Results

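The neurotransmitter and neuropeptide receptors of CT26 tumors were taken as the 93 genes, of 33696 listed, whose symbols mark acetylcholine, adrenergic, serotonin, dopamine, GABA-A, tachykinin or ionotropic glutamate receptors, together with *Calcrl*, *Ramp1*, *Ramp2* and *Ramp3*. The choice was made by symbol alone, used no measured value, and took in 2 non-coding transcripts named after receptor genes, *Chrna1os* and *Grin1os*. The tumor cells, CT26, come from a colon carcinoma of the mouse and were injected under the skin of male BALB/c mice that were either left untreated (UT) or treated with BUP-Gel, a hydrogel loaded with the local anesthetic bupivacaine (BUP). Live cells of 3 tumors per group were sorted into CD45+ (immune) and CD45- cells, mixed at 4:1 according to the sample labels, where the study's methods give another ratio, and run as a single 10x 5′ library per group. With 1 library per group there was no replicate, so the groups could be set side by side but not tested. The question taken up here is which of these receptors were detected above background, in which cells, and at what level in each library.

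Nerves act on other cells by releasing small transmitters and peptides, and a cell can answer only if it carries a matching receptor. Nicotinic, GABA-A and ionotropic glutamate receptors are ion channels built from several subunits, so a single subunit transcript does not make a receptor, whereas muscarinic, adrenergic, dopamine, tachykinin and nearly all serotonin receptors are single-chain G protein-coupled receptors. *Calcrl* encodes a receptor that needs a partner of the RAMP family: with RAMP1 it binds calcitonin gene-related peptide (CGRP), and with RAMP2 or RAMP3 it binds adrenomedullin. The study blocked the receptors encoded by *Chrm3*, *Chrm5* and *Chrna7*, so these genes were followed whatever their level.

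The study's filter left 13939 of 14777 barcodes, 7163 in UT with a median of 8430 unique molecular identifiers (UMIs) and 6776 in BUP with a median of 10420, and 76 barcode sequences occurred in both libraries. Both libraries were clustered together without the receptor genes, and 22 of 28 clusters were kept as classes, 13 immune and 9 non-immune. The remaining 6 clusters, with 1634 cells, were of mixed lineage or unnamed. Class names ending in -like rest on marker transcripts, and the other classes carry the names of leading genes. Summed Y-linked transcripts, which male host cells carry, stood at 106 to 255 UMIs per 1000000 UMIs of the class (CPM) in the immune classes and at 122 to 134 CPM in fibroblast-like cells. In the 7 non-immune clusters other than fibroblast-like and erythrocyte-like cells they stood at 0 to 2.26 CPM. These 7 clusters are called Y-low below. No class was led by endothelial, pericyte, Schwann cell or neuron markers. Of the Schwann cell and neuron markers given here, *Sox10* and *Snap25* stayed at or below 0.488 and 0.57 CPM in every cluster. *Nefl* and *Tubb3* were present in Y-low clusters, *Nefl* up to 34.6 CPM in the Nppb and Krt20 cluster and *Tubb3* up to 30.9 CPM in the Cenpf and Ccnb1 cluster, both in UT.

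A receptor was called detected in a class where both libraries held at least 10 of its UMIs and where the lower exact Poisson 95% limit of its CPM exceeded the level that free RNA could give. That level was the gene's CPM in the whole library times the highest ratio, class over library, of marker transcripts of a foreign lineage. Intervals here and below cover counting error only, not the spread between tumors. By this rule 18 of the 93 receptor genes were detected in at least 1 class, beside 42.6% of all 33696 listed genes. Immune classes held 10 of them and non-immune classes 9, with *Calcrl* on both sides. Of the other 75 genes, 17 had no UMI in either library, 33 had 1 to 9 UMIs over both libraries, and 25 had 10 or more UMIs but passed the rule in no class, with *Htr2b*, at 179 UMIs, the highest of these. The 18 genes gave 86 pairs of gene and class. No receptor was detected in the proliferating C1q macrophage-like cells, where T cell transcripts stood at 0.95 (UT) and 2.42 (BUP) times their library level, or in erythrocyte-like cells, where 10 UMIs correspond to 72.5 CPM in UT. Mast-like cells were shallower still, at 122 CPM (UT) and 134 CPM (BUP) for 10 UMIs, so lower receptor levels were not detectable in them.

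**Figure D1:**
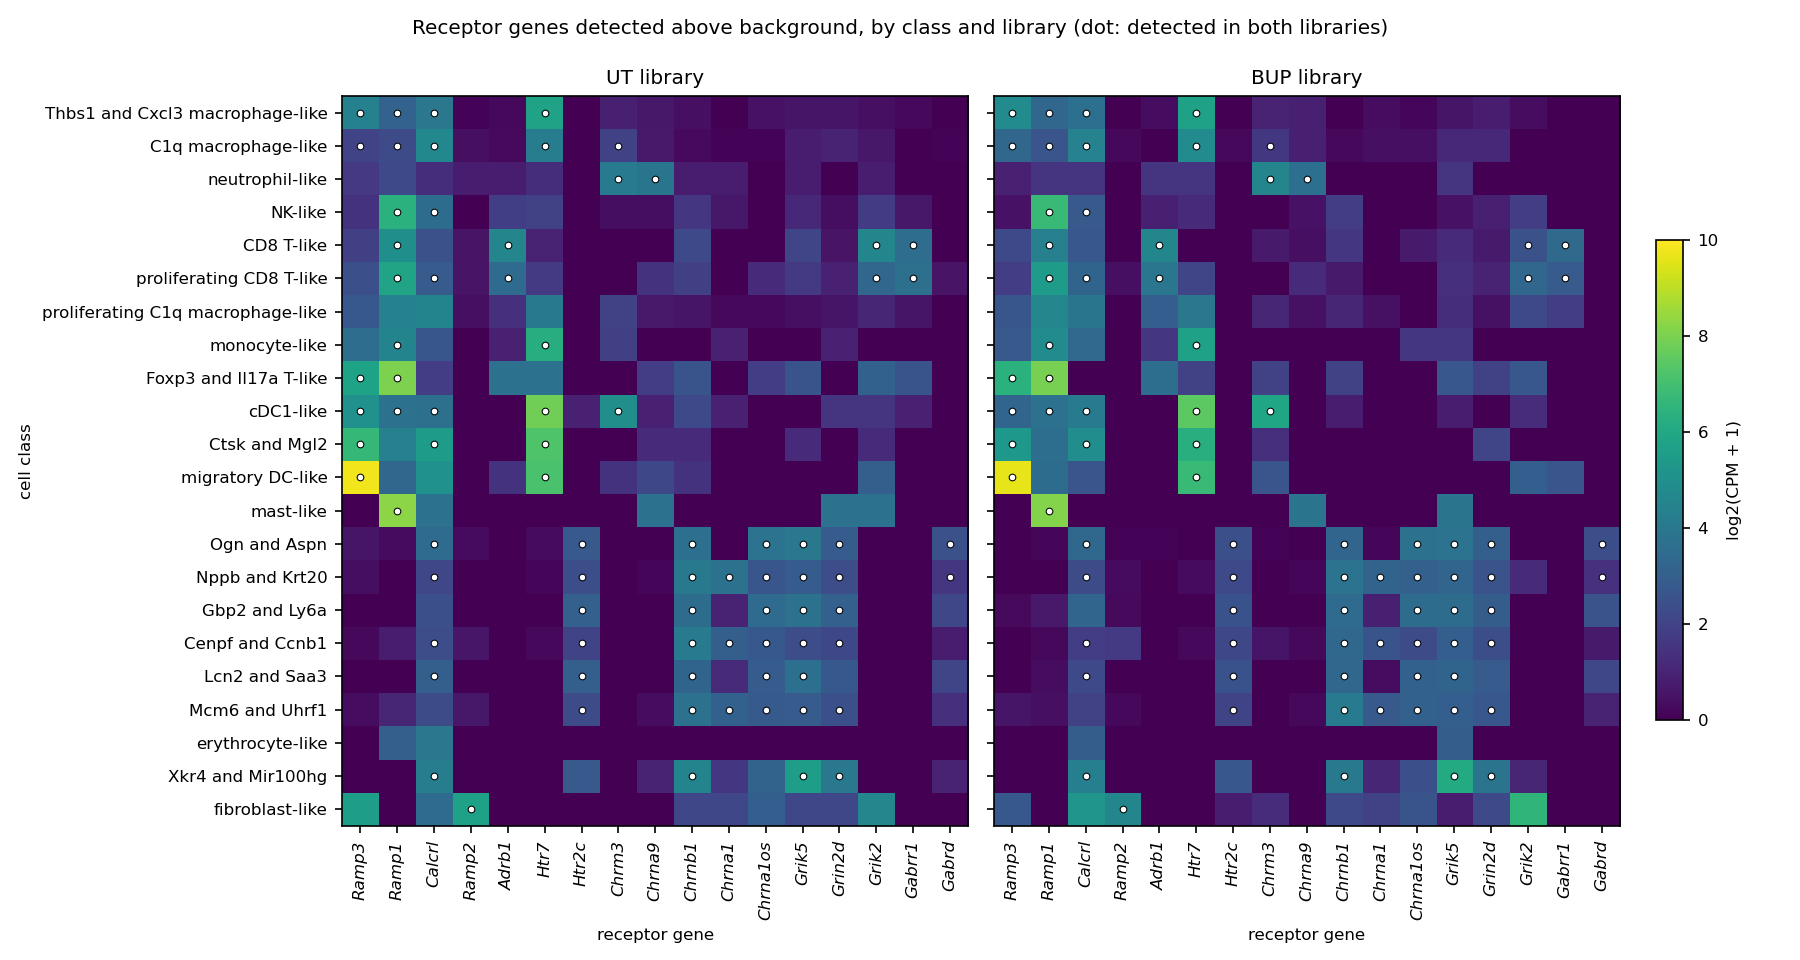
Level of 17 receptor genes detected above background (columns) in the 22 classes (rows), as log2(CPM + 1), in the UT library (left) and the BUP library (right); a dot marks a pair detected in both libraries. Immune classes (upper 13 rows) and Y-low clusters hold largely separate sets of genes, and *Ramp3* in migratory DC-like cells is the brightest field in both libraries.

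Genomic sequence before the transcript start is shown for 4 genes that the later paragraphs describe by class, chosen after their values were seen: *Ramp3* of migratory DC-like cells, *Htr7* of dendritic and macrophage classes, and *Chrna1* with its neighbor *Chrna1os*. Each run is the 250 bases before the start annotated by GENCODE M39 on GRCm39, read 5′ to 3′ on the gene's strand. *Ramp3* lies on the plus strand and its run is chr11:6608261-6608510. *Htr7* lies on the minus strand, with its run at chr19:36035178-36035427. *Chrna1*, on the minus strand, has chr2:73410836-73411085, and *Chrna1os*, on the plus strand, has chr2:73414921-73415170. Capitals mark matches on either strand to the E-box letters CAGCTG or CAGGTG, the AP-1 letters TGAGTCA, the PU.1 letters GAGGAAGT, the CRE letters TGACGTCA or the RUNX letters TGTGGTT, none of which contains another.
Ramp3: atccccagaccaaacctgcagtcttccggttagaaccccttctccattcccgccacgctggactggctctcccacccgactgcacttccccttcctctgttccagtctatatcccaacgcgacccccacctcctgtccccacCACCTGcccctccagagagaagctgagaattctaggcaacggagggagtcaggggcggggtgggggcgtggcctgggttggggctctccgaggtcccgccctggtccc
Htr7: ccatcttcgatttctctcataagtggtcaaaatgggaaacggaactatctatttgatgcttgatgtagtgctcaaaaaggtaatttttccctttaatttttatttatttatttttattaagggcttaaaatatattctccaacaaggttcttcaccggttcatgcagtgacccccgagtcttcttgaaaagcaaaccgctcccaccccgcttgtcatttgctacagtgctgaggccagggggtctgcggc
Chrna1: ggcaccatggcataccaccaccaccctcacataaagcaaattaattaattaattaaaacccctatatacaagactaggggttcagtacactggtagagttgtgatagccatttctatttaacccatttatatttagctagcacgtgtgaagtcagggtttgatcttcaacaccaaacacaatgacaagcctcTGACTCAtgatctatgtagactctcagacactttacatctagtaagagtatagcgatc
Chrna1os: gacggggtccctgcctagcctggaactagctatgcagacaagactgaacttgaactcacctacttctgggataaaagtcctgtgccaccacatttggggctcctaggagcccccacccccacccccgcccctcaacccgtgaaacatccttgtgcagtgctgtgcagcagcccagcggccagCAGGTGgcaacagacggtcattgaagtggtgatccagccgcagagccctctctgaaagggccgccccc
The *Ramp3* and *Chrna1os* runs hold CAGGTG, which stood in 17.72% of the same window of 21770 protein-coding genes and in 7 of the 18 detected receptor genes. The *Chrna1* run holds the AP-1 letters, present in 4.14% of all these windows and in no other detected receptor gene. No letters of the search were found in the *Htr7* run. *Chrna1* and *Chrna1os* do not overlap: they point away from each other, with 4335 bases between their starts. A match is a description of the letters and not a bound site.

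*Ramp3*, the partner that turns the *Calcrl* product into an adrenomedullin receptor, had its highest level in migratory DC-like cells. These held 501 UMIs in UT and 454 in BUP, or 888 CPM (95% interval 812 to 969) and 793 CPM (722 to 870). A *Ramp3* UMI was found in 83.8% of 74 UT cells and 91.0% of 67 BUP cells, at median depths of 7174 and 6931. With every cell cut down at random to 2000 UMIs (thinning) the shares were 64.5% and 73.8%. In the Ogn and Aspn cluster, the largest non-immune cluster, 0.329% of UT cells and 0 of 1027 BUP cells had a *Ramp3* UMI at median depths of 13355 and 13191. *Ramp3* was also among the 10 leading genes of migratory DC-like cells, although it had been kept out of the clustering.

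Elsewhere *Ramp3* was lower. The Ctsk and Mgl2 cluster, led by osteoclast and dendritic cell genes, held 101 CPM in UT and 39 CPM in BUP. The markers of this cluster also differed between the libraries. All 4 osteoclast markers were higher in BUP (*Ctsk* 472 CPM in UT and 5478 in BUP, *Mmp9* 365 and 3845), and all 4 cDC2 markers were lower (*Mgl2* 1026 and 540, *Cd209a* 551 and 252), so its values in UT and BUP do not come from the same mixture of cells. Foxp3 and Il17a T-like cells, a mixture of regulatory and IL-17-producing T cells by their leading genes, held 55.5 CPM in UT and 82.0 CPM in BUP. In this class *Foxp3* (177 CPM in UT and 96.1 in BUP), *Cd4* (124 and 65.0), *Il2ra*, *Ctla4* and *Ikzf2* were lower in BUP. The part of these markers in the receptor values of the class, here and below, was not tested. Thbs1 and Cxcl3 macrophage-like cells held 20.2 and 27.7 CPM. In cDC1-like cells 91.7% of the *Ramp3* UMIs lay in 5 cells in each library, so the class values of 32.6 (UT) and 8.54 CPM (BUP) describe few cells.

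*Ramp1*, the CGRP partner, was detected in 9 classes, 4 of them NK or T cell classes. Foxp3 and Il17a T-like cells held 257 CPM (210 to 312) in UT and 249 CPM (200 to 307) in BUP, and 31.8% and 42% of these cells had a UMI. Mast-like cells stood at 305 CPM (197 to 450) and 281 CPM (174 to 430), from 25 and 21 UMIs in 35 cells each. The intervals of these classes overlapped, so their order is not resolved. NK-like cells followed with 82.1 CPM (UT) and 106 CPM (BUP), with UMIs in 29.2% and 37.4% of cells, against 0.329% and 0.195% in the Ogn and Aspn cluster. CD8 T-like cells had 30.4 and 19.5 CPM, and proliferating CD8 T-like cells 56.0 and 43.5 CPM.

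*Calcrl*, the receptor itself, was detected in 11 classes, the most of any receptor gene. C1q macrophage-like cells held 359 UMIs in UT and 120 in BUP, or 24.5 CPM (22.0 to 27.2) and 20.4 CPM (16.9 to 24.4), with UMIs in 21.4% and 17.7% of cells. Among classes that passed, the Ctsk and Mgl2 cluster had the highest values, 45.3 and 29.3 CPM, but 65.7% and 83.3% of its UMIs lay in 5 cells. NK-like cells held 10.7 and 5.89 CPM, and the Ogn and Aspn cluster 10.4 and 9.32 CPM. CD8 T-like cells, at 4.60 and 5.61 CPM, did not pass the rule in both libraries.

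*Ramp2*, the other adrenomedullin partner, passed only in fibroblast-like cells, which express collagens. They held 15 UMIs in 5 of 15 UT cells and 32 UMIs in 22 of 63 BUP cells. These were 51.5 CPM (28.8 to 84.9) in UT and 22.8 CPM (15.6 to 32.1) in BUP. In CD8 T-like cells *Ramp2* had 1 UMI in UT and none in BUP.

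Cells with UMIs of both *Calcrl* and a partner were few. In NK-like cells *Calcrl* and *Ramp1* occurred together in 11 of 486 UT cells and 8 of 342 BUP cells, among 34 and 14 cells with *Calcrl*. In migratory DC-like cells *Calcrl* and *Ramp3* occurred together in 12 of 74 UT cells and 1 of 67 BUP cells. *Ramp3* alone was in 62 and 61 of these cells, and *Calcrl*, in 13 and 2 cells, did not pass the rule in this class. In fibroblast-like cells *Calcrl* and *Ramp2* occurred together in 0 of 15 UT cells and 8 of 63 BUP cells. Detection per cell is sparse at these levels, so cells that carry both transcripts can be missed.

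**Figure D2:**
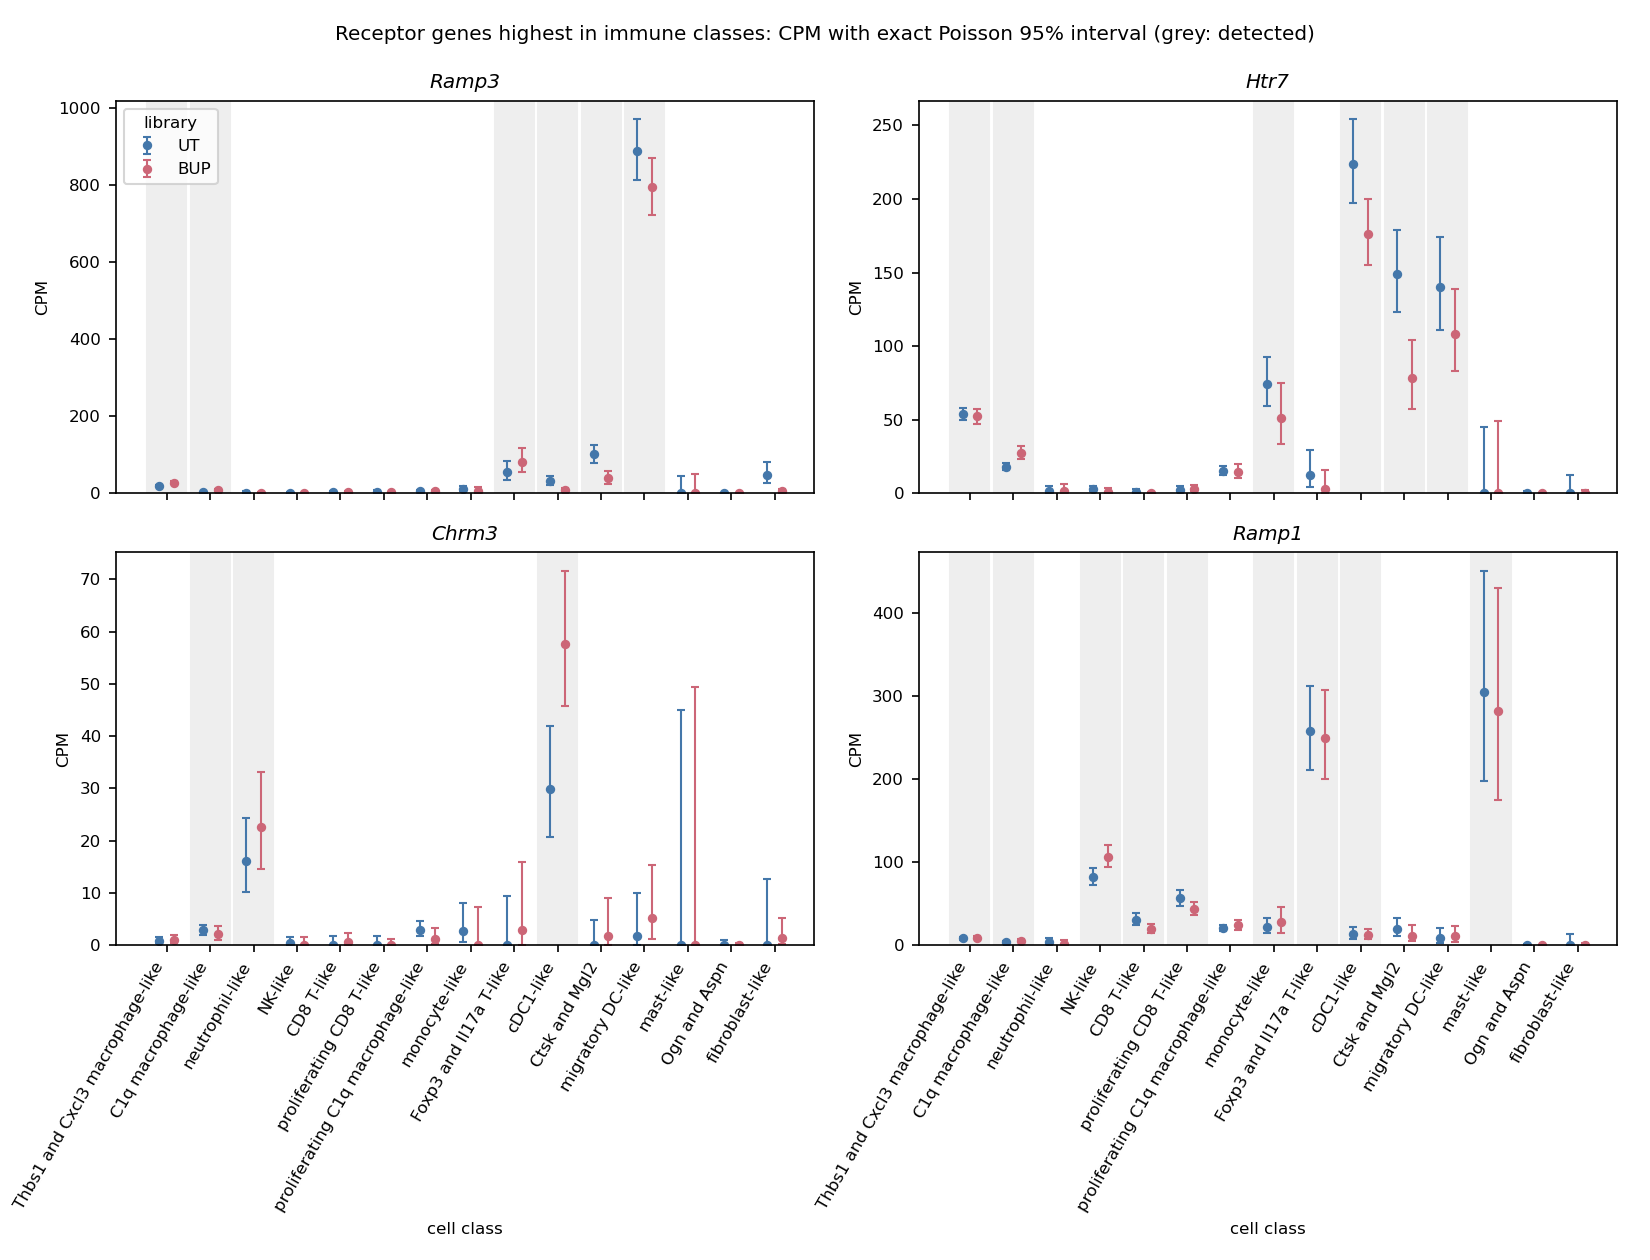
CPM (vertical axis, linear) of *Ramp3*, *Htr7*, *Chrm3* and *Ramp1* in the 13 immune classes and, for comparison, the Ogn and Aspn cluster and fibroblast-like cells (horizontal axis); points are the UT and BUP libraries, bars exact Poisson 95% intervals, and grey bands pairs detected in both libraries. *Ramp3* peaks in migratory DC-like cells, *Htr7* in cDC1-like cells, *Chrm3* in cDC1-like and neutrophil-like cells, and *Ramp1* in Foxp3 and Il17a T-like and mast-like cells.

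*Adrb1*, which encodes the β1 receptor for adrenaline and noradrenaline, passed only in the T cell classes with CD8 transcripts. CD8 T-like cells held 49 UMIs in UT and 71 in BUP, or 22.5 CPM (16.7 to 29.8) and 23.4 CPM (18.3 to 29.6). A UMI was found in 13.4% of 307 UT cells and 11.9% of 481 BUP cells at median depths of 6176 and 5734, against 0 of 304 and 0.0974% of 1027 cells in the Ogn and Aspn cluster. The 5 cells with most UMIs held 24.5% and 16.9% of the total, so no few cells carried the level. Proliferating CD8 T-like cells held 10.2 and 14.4 CPM. Foxp3 and Il17a T-like cells held 12.6 and 11.3 CPM but could not pass at that level, since 10 UMIs correspond to 25.2 (UT) and 28.3 CPM (BUP) there. The 6 alpha adrenergic genes, 93 UMIs in all, were detected in no class, and neither was *Adrb3*, with 2 UMIs in each library.

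Of the 14 serotonin receptor genes, *Htr7* was detected in immune classes and *Htr2c* in Y-low clusters. *Htr7* encodes a receptor that raises cyclic AMP. It was highest in cDC1-like cells, the dendritic cells specialized in presenting antigen to CD8 T cells. These held 247 UMIs in UT and 248 in BUP, or 224 CPM (197 to 254) and 176 CPM (155 to 200). An *Htr7* UMI was found in 84.8% of 66 UT cells and 79.3% of 87 BUP cells at median depths of 16278 and 14575, and in 34.4% and 18.4% after thinning to 2000 UMIs. In the Ogn and Aspn cluster 0.329% of UT cells and 0 of 1027 BUP cells had one.

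*Htr7* was also detected in other myeloid classes. The Ctsk and Mgl2 cluster held 149 and 78.1 CPM, migratory DC-like cells 140 and 108 CPM, and monocyte-like cells 74.6 and 51.1 CPM. Between the macrophage classes, Thbs1 and Cxcl3 cells held 53.7 CPM (49.7 to 58.0) in UT and 52.4 CPM (47.5 to 57.6) in BUP, while C1q cells held 18.1 CPM (16 to 20.5) and 27.4 CPM (23.3 to 31.9). The intervals of these 2 macrophage classes did not overlap in either library.

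*Htr2c*, whose product signals through calcium and is best known from the brain, passed in 6 Y-low clusters at 3.09 to 7.31 CPM over both libraries. The Ogn and Aspn cluster held 25 UMIs in UT and 63 in BUP, or 6.02 and 4.41 CPM, and CD8 T-like cells had no *Htr2c* UMI in 307 UT and 481 BUP cells. In Lcn2 and Saa3 cells 72.7% (UT) and 61.1% (BUP) of the UMIs lay in 5 cells. The serotonin-gated channel genes *Htr3a* and *Htr3b* had no UMI in either library.

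Of the receptors that the study blocked, *Chrm3* was detected. This gene of the muscarinic M3 receptor was highest in cDC1-like cells, with 33 UMIs in UT and 81 in BUP, or 29.9 CPM (20.6 to 42) and 57.6 CPM (45.8 to 71.6). The UMIs lay in 12 of 66 UT cells and 22 of 87 BUP cells, and the 5 cells with most held 72.7% and 51.9% of them. Neutrophil-like cells held 16.1 and 22.5 CPM, spread over 22 cells in each library. C1q macrophage-like cells held 2.80 and 2.04 CPM, with UMIs in 2.53% and 1.73% of cells. In the Ogn and Aspn cluster there was no *Chrm3* UMI in UT and 1 in BUP, in the Nppb and Krt20 cluster none in either library, and in CD8 T-like cells none in UT and 2 in BUP.

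*Chrm5*, the muscarinic M5 receptor gene, had no UMI in either library, which allows up to 0.0363 CPM in UT and 0.0336 CPM in BUP taking 3 counts as the most that a count of 0 allows. *Chrna7*, the α7 nicotinic subunit gene, had 2 UMIs in UT and 1 in BUP. *Chrm1* had none, *Chrm2* 2 in each library, and *Chrm4* 6 and 2. Transcript counts of this kind say nothing of protein. By flow cytometry the study reports CHRM3, CHRM5 and CHRNA7 protein in CT26 tumors, on cancer cells, macrophages and T cells alike.

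Among the 17 nicotinic genes, *Chrna9*, *Chrna1*, *Chrnb1* and the non-coding transcript *Chrna1os* were detected. *Chrna9*, a subunit known from hair cells of the inner ear, passed in neutrophil-like cells alone, with 13.9 CPM (8.37 to 21.7) in UT and 11.7 CPM (6.22 to 20) in BUP, from 19 and 13 UMIs. Mast-like cells held 12.2 and 13.4 CPM but could not pass at that level, since 10 UMIs correspond to 122 (UT) and 134 CPM (BUP) there. *Chrna10*, the usual partner of *Chrna9*, had no UMI in UT and 1 in BUP.

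*Chrna1* and *Chrnb1*, subunits of the nicotinic receptor of muscle, were found in Y-low clusters. *Chrna1* was highest in the Nppb and Krt20 cluster, with 12.7 CPM (10.2 to 15.6) in UT and 8.02 CPM (6.31 to 10.0) in BUP, with UMIs in 23.8% of 235 and 13.5% of 385 cells at median depths of 28727 and 23343. The proliferating clusters led by Cenpf and Ccnb1 and by Mcm6 and Uhrf1 held 7.12 and 7.70 CPM in UT and 5.11 and 5.86 CPM in BUP. The Ogn and Aspn cluster had no *Chrna1* UMI in 304 UT cells and 2 in 1027 BUP cells, and CD8 T-like cells had none. After thinning to 2000 UMIs the share in the Nppb and Krt20 cluster was 0 in UT and 1.32% in BUP, so single-cell shares of this gene were near the detection limit at equal depth.

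*Chrna1os* did not follow *Chrna1*. It was highest where *Chrna1* was nearly absent, in the Ogn and Aspn cluster, with 13 CPM (9.77 to 17.0) in UT and 12.8 CPM (11 to 14.8) in BUP. The Nppb and Krt20 cluster held 5.37 and 7.49 CPM of it, and the upper limits there, 7.37 and 9.44 CPM, lay below the lower limits in the Ogn and Aspn cluster. *Chrnb1* passed in all 7 Y-low clusters, at 8.42 to 22.0 CPM over both libraries, and CD8 T-like cells held 3.68 and 1.98 CPM. *Chrna1* and *Chrnb1* UMIs occurred in the same cell in 27 of 235 UT cells and 17 of 385 BUP cells of the Nppb and Krt20 cluster. Of the other subunits of the muscle receptor, *Chrnd* had no UMI and *Chrng* 1 in UT. *Chrne* had 38 and 35 UMIs, of which 15 in UT and 9 in BUP lay in NK-like cells (4.34 and 3.78 CPM), and it passed in no class at a minimum of 10 UMIs but did at 5.

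**Figure D3:**
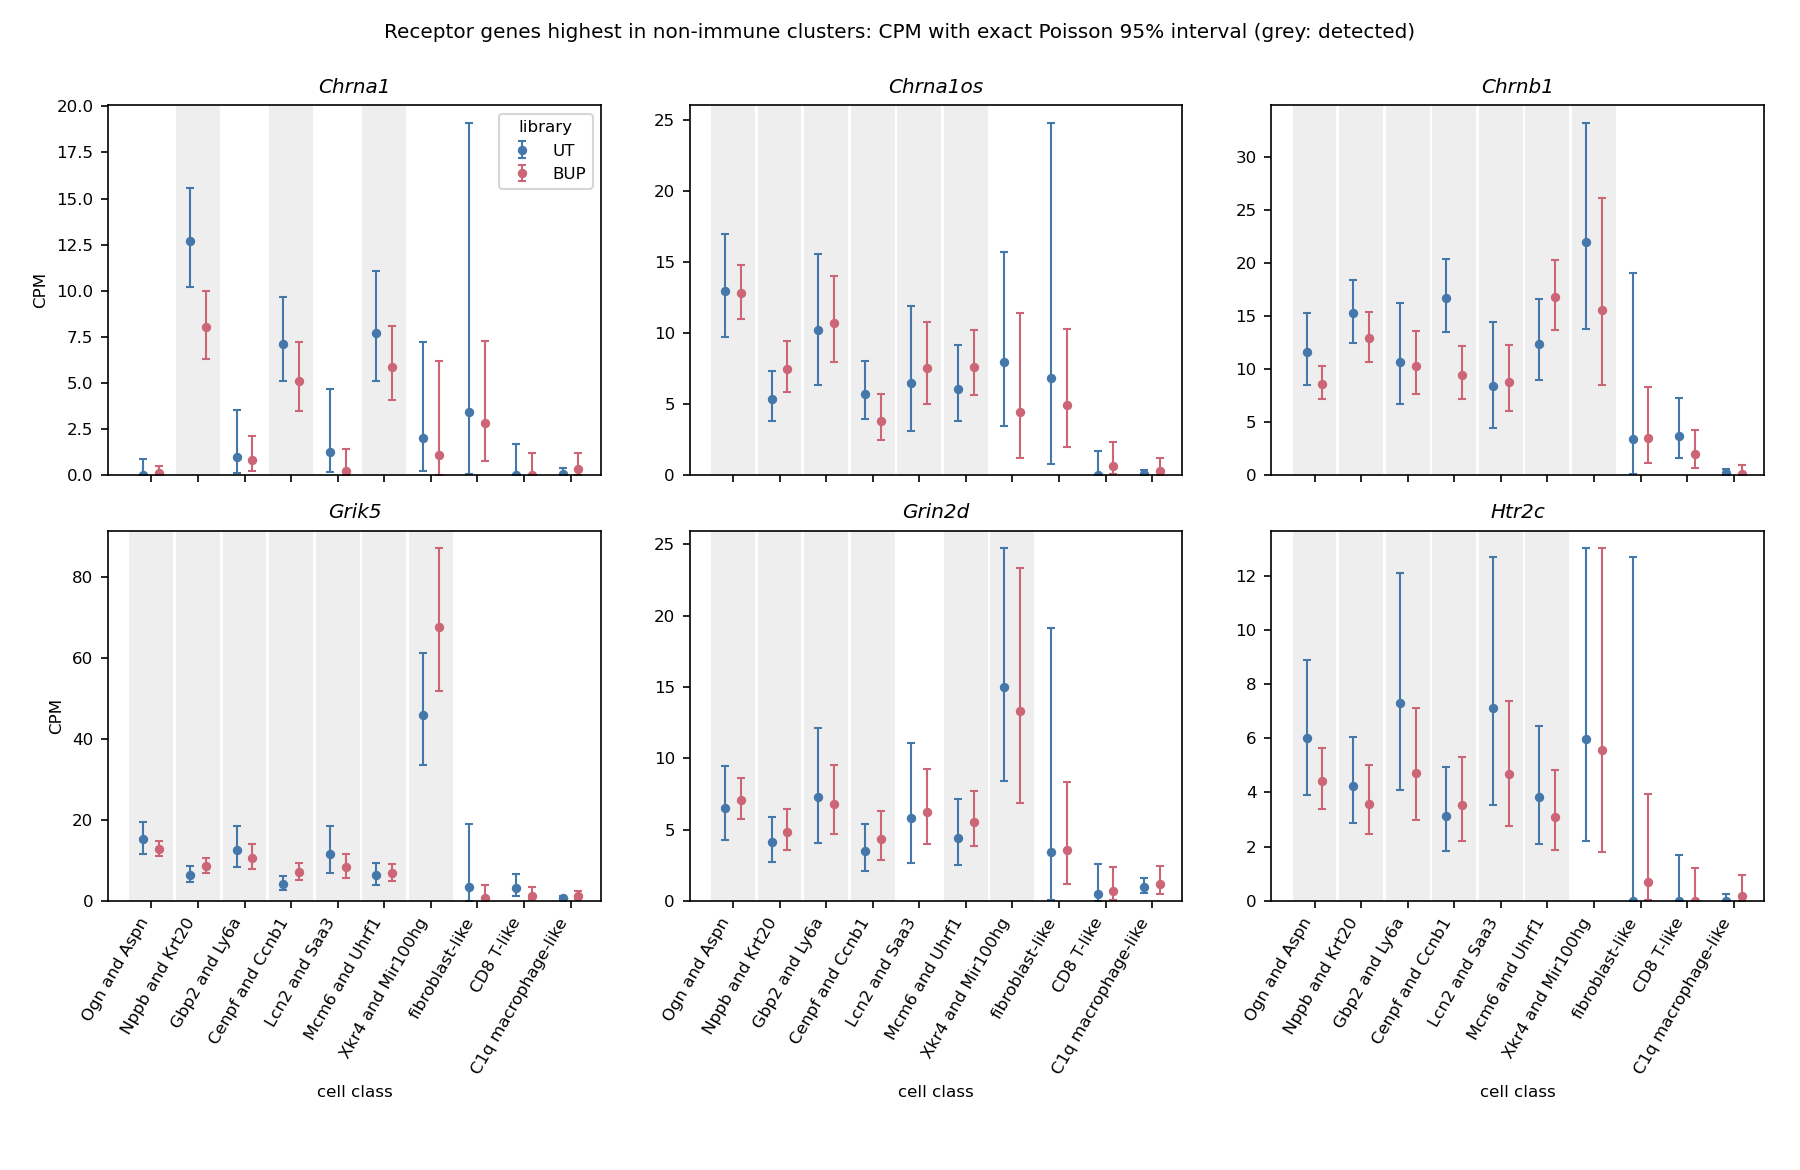
CPM (vertical axis, linear) of *Chrna1*, *Chrna1os*, *Chrnb1*, *Grik5*, *Grin2d* and *Htr2c* in the 7 Y-low clusters, fibroblast-like cells and, for comparison, CD8 T-like and C1q macrophage-like cells (horizontal axis); points are the UT and BUP libraries, bars exact Poisson 95% intervals, and grey bands pairs detected in both libraries. *Chrna1* and *Chrna1os* rank the Ogn and Aspn and the Nppb and Krt20 clusters in opposite order, and *Grik5* stands highest in the Xkr4 and Mir100hg cluster.

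Glutamate receptor genes were split in the same way. *Grik5*, a kainate receptor subunit that needs another subunit to form a channel, passed in all 7 Y-low clusters. The Ogn and Aspn cluster held 63 UMIs in UT and 184 in BUP, or 15.2 CPM (11.7 to 19.4) and 12.9 CPM (11.1 to 14.9), with UMIs in 17.4% and 16.4% of cells against 2.28% and 0.832% of CD8 T-like cells. The Xkr4 and Mir100hg cluster stood at 45.9 and 67.8 CPM. This cluster also had the highest *Malat1* of the non-immune classes, 19000 CPM in UT and 22454 CPM in BUP, and median mitochondrial shares of 6.91% and 8.49%, and the part of these in the receptor values was not tested. *Grin2d*, an NMDA receptor subunit, passed in 6 Y-low clusters at 3.47 to 15 CPM. Its obligatory partner *Grin1* had 7 UMIs in UT and 4 in BUP and was detected nowhere.

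*Grik2*, a kainate receptor subunit able to form channels alone, was detected in CD8 T-like cells and their proliferating counterparts. CD8 T-like cells held 50 UMIs in 21 of 307 UT cells and 14 UMIs in 10 of 481 BUP cells, or 23.0 CPM (17.1 to 30.3) and 4.62 CPM (2.53 to 7.75). Proliferating CD8 T-like cells held 8.89 and 8.96 CPM. Foxp3 and Il17a T-like cells held 7.57 (UT) and 5.65 CPM (BUP), under the 25.2 and 28.3 CPM that 10 UMIs correspond to there. Outside T cells, fibroblast-like cells of BUP held 129 UMIs, or 91.7 CPM, in 24 of 63 cells, while those of UT held 7 UMIs in 2 of 15 cells and so stayed under the 10-UMI limit. Among the BUP fibroblast-like cells 17.5% had a doublet score in the top 6% of their library, and among the UT ones 0%, and the part of this in the values was not tested. The 4 AMPA receptor genes passed in none of the 22 classes.

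Of 19 GABA-A genes, *Gabrr1* and *Gabrd* were detected. *Gabrr1*, a ρ subunit that can form GABA-gated channels alone, passed only in CD8 T-like and proliferating CD8 T-like cells among the 22 classes. Foxp3 and Il17a T-like cells held 5.04 CPM in UT and 0 in BUP. They could not pass at such levels, since 10 UMIs correspond to 25.2 (UT) and 28.3 CPM (BUP) there. CD8 T-like cells held 11 CPM (7.07 to 16.4) in UT and 9.90 CPM (6.68 to 14.1) in BUP, with UMIs in 6.19% and 4.37% of cells against 0 of 304 and 0 of 1027 in the Ogn and Aspn cluster. *Gabrd*, the δ subunit, passed in the Ogn and Aspn cluster, at 4.58 and 4.34 CPM, and in the Nppb and Krt20 cluster, at 1.98 and 1.69 CPM. Gbp2 and Ly6a cells held 3.41 (UT) and 4.94 CPM (BUP) of it, and Lcn2 and Saa3 cells 3.24 and 3.37 CPM. Neither could pass at its UT level, since 10 UMIs correspond to 4.88 and 6.47 CPM in these clusters in UT. The 5 dopamine genes (11 UMIs) and 3 tachykinin genes (4 UMIs) were detected in no class.

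Between UT and BUP-treated tumors, 118 pairs of receptor gene and class with at least 20 UMIs over both libraries, from 22 genes, could be compared. Their median log2 ratio of BUP over UT was -0.11, beside -0.06 over all 192343 pairs of gene and class. At least 2-fold higher in BUP were 6 pairs (5.08%, beside 2.08% of all pairs), and at least 2-fold lower were 9 pairs (7.63%, beside 3.28% of all pairs). These shares were not matched for counts, so the difference between them is not read as a property of receptor genes. With at least 50 UMIs the 15 receptor pairs past 2-fold became 5. Each log2 ratio compares 1 pool of 3 tumors with another, so the treatment and a difference between pools cannot be told apart. Among the 86 detected pairs, 1 was 2-fold higher and 4 were 2-fold lower, so 10 of the 15 pairs past 2-fold lay where the gene was not detected in both libraries.

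The detected pair that was higher was *Ramp3* in C1q macrophage-like cells, from 3.14 CPM in UT to 8.84 CPM in BUP (log2 ratio 1.49, interval 0.89 to 2.10), with 59.6% of the BUP UMIs in 5 cells. The 4 lower pairs were *Grik2* in CD8 T-like cells (log2 ratio -2.32, interval -3.28 to -1.44), *Ramp3* in cDC1-like cells (-1.93, -3.01 to -0.96) and in the Ctsk and Mgl2 cluster (-1.37, -2.10 to -0.69), where the osteoclast and cDC2 markers also moved and their part was not tested, and *Ramp2* in fibroblast-like cells (-1.18, -2.10 to -0.19). Markers of migratory DC-like cells, where *Ramp3* is highest, moved beside it. In cDC1-like cells *Ccr7*, *Ccl22* (21.8 CPM in UT and 14.9 in BUP), *Fscn1* and *Cacnb3* were lower in BUP. In the Ctsk and Mgl2 cluster *Ccr7* (173 and 50.4 CPM) and *Ccl22* (114 and 65.1) were lower, while *Fscn1* and *Cacnb3* were higher. The part of these markers in the *Ramp3* values was not tested. For *Grik2* the UT cells with a UMI were 6.84% and the BUP cells 2.08%. *Grik2* in proliferating CD8 T-like cells had a log2 ratio of 0.01 (-0.87 to 0.92). The *Ramp2* pair rests on 5 UT cells and 22 BUP cells with a UMI. Collagens of fibroblast-like cells were also lower in BUP (*Col1a1* 12267 CPM in UT and 5748 in BUP, *Col3a1* 15224 and 8151). The part of this in the *Ramp2* value was not tested.

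Several pairs moved by less than 2-fold with intervals that left out 0. *Htr7* was 0.59 higher on the log2 scale in BUP in C1q macrophage-like cells (0.30 to 0.88) but had a log2 ratio of -0.93 (-1.45 to -0.43) in the Ctsk and Mgl2 cluster, beside the shift of osteoclast and cDC2 markers given above, whose part was not tested. Markers of C1q macrophage-like cells differed too. The monocyte markers *Plac8* (150 CPM in UT and 252 in BUP), *Ccr2*, *Ace* and *Adgre4* were higher in BUP, and *Ly6c1* and *Ly6c2* were lower. Their part in the *Htr7* and *Ramp3* values of this class was not tested. *Ramp1* was 0.37 higher in NK-like cells (0.12 to 0.62) and had a log2 ratio of -0.64 (-1.17 to -0.11) in CD8 T-like cells. In CD8 T-like cells *Foxp3* (8.74 CPM in UT and 0.66 in BUP), *Cd4* (14.7 and 4.29), *Il2ra*, *Ctla4* and *Ikzf2* were lower in BUP as well. Foxp3 and Il17a T-like cells held more *Ramp1*, 257 and 249 CPM. The part of these markers in the *Ramp1* value was not tested. *Chrm3* was 0.95 higher in cDC1-like cells (0.35 to 1.58). Most of its UMIs there lay in a few cells, as given above, and an interval for counting error does not cover that. *Chrna1* had a log2 ratio of -0.67 (-1.13 to -0.21) in the Nppb and Krt20 cluster and *Chrnb1* one of -0.82 (-1.32 to -0.34) in the Cenpf and Ccnb1 cluster.

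**Figure D4:**
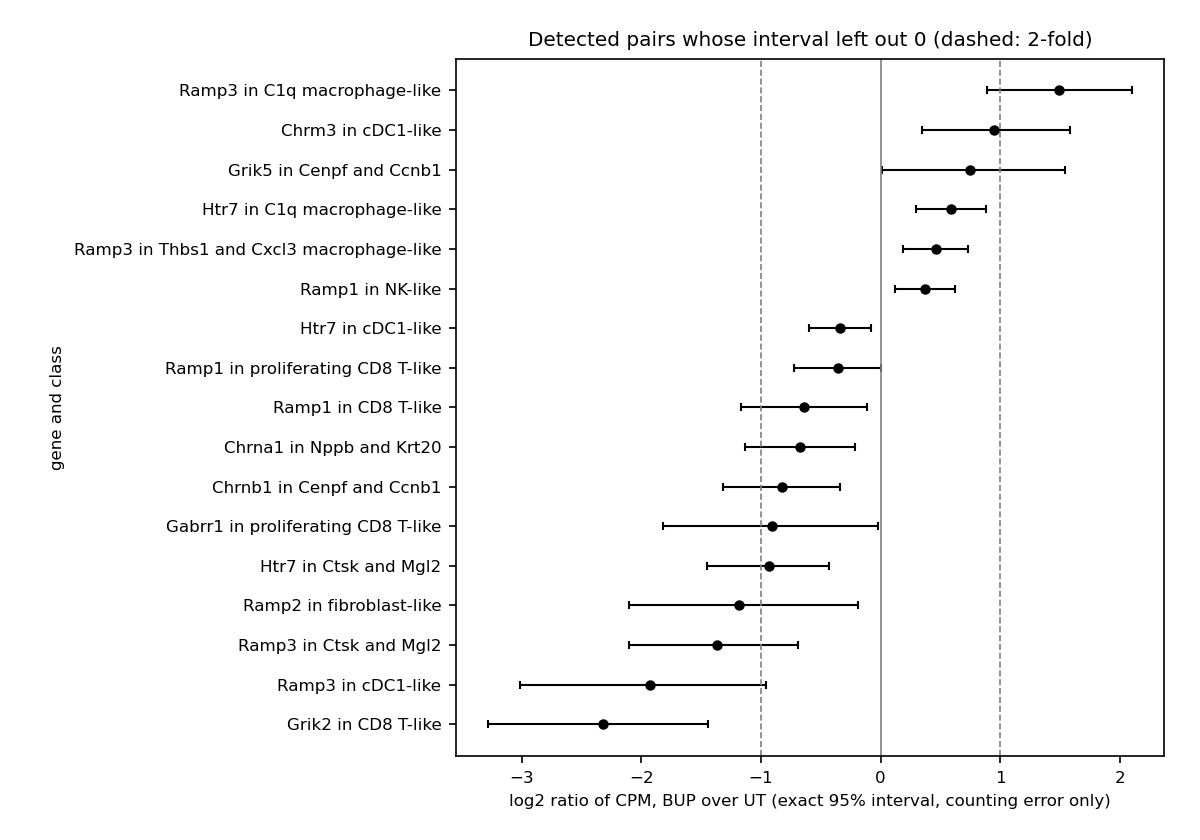
Log2 ratio of CPM, BUP over UT (horizontal axis), with its exact 95% interval for counting error, for 17 detected pairs of gene and class (vertical axis) whose interval left out 0; dashed lines mark 2-fold. Of these, 6 lie above 0 and 11 below, and *Grik2* in CD8 T-like cells is the lowest. They come from the 86 detected pairs. The share of all pairs of gene and class with such an interval was not counted. The number shown is therefore not read as a property of receptor genes.

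Other genes of the same pathways were read from lists of handling enzymes, transporters, ligands and signaling partners. Their counts stand beside 42.6% of all listed genes detected and, of all pairs compared, 2.08% at least 2-fold higher and 3.28% at least 2-fold lower in BUP. These background shares were not matched for counts. Of 9 cholinergic handling genes, 2 were detected, *Lynx1* and *Slurp1*, both encoding small proteins that modulate nicotinic receptors. *Slurp1* reached 78.1 CPM (UT) and 59.5 CPM (BUP) in the Mcm6 and Uhrf1 cluster, and of 12 pairs of gene and class compared 1 was at least 2-fold higher in BUP and 0 were lower. *Chat*, which makes acetylcholine, was not detected. Of 14 monoamine handling genes, 6 were detected, with 0 of 39 pairs past 2-fold. Mast-like cells held *Tph1*, the enzyme that starts serotonin synthesis outside neurons, at 610 CPM (UT) and 710 CPM (BUP), together with the serotonin transporter *Slc6a4* (280 and 201 CPM) and the vesicular transporter *Slc18a2* (134 CPM in both). *Maoa* and *Maob*, which break monoamines down, were detected as well, while *Th* and *Dbh*, which make noradrenaline, were not.

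Of 20 genes of GABA and glutamate handling and metabotropic receptors, 5 were detected, among them *Gabbr1* in 12 classes, with 2 of 68 pairs at least 2-fold higher and 1 lower. *Gabbr1* encodes a metabotropic GABA receptor subunit. Of 8 genes of peptide ligands and the calcitonin receptor, 3 were detected, with 3 of 9 pairs at least 2-fold higher and 2 lower. *Calca*, the gene of CGRP and calcitonin, was highest, among classes where it passed, in CD8 T-like cells, with 12 CPM (UT) and 29.7 CPM (BUP) (log2 ratio 1.31, interval 0.67 to 2.0), and *Calcb*, the second CGRP gene, passed in proliferating CD8 T-like cells, at 5.78 and 5.44 CPM. *Adm*, the adrenomedullin gene, was highest, again among classes where it passed, in fibroblast-like cells, at 37.7 and 14.9 CPM (log2 ratio -1.34, -2.45 to -0.14). These values rest on 11 UMIs in UT and 21 in BUP, in a class of 15 and 63 cells. Collagens and doublet scores of fibroblast-like cells differed between the libraries, as given above, and their part in the *Adm* value was not tested. All 10 genes of receptor desensitization and cyclic AMP signaling were detected, in 6 to 18 classes each, with 4 of 179 pairs at least 2-fold lower in BUP and 1 higher. *Pde4d*, which breaks down cyclic AMP, had a log2 ratio of -1.46 (-1.85 to -1.08) in mast-like cells, from 229 UMIs in UT and 76 in BUP. These were 35 cells in each library, with median depths of 1638 (UT) and 928 UMIs (BUP). T cell transcripts stood there at 0.891 (UT) and 1.94 (BUP) times their library level. The part of these differences in the *Pde4d* value was not tested.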

How the data were processed

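Single-cell RNA-seq was read from 2 deposited matrices of raw UMI counts per gene and barcode, which the authors made with Cell Ranger (8.0.1 and Seurat 5.0.1 are named in the submitters' processing notes, and the study's methods give another Cell Ranger version) on GRCm39. Whether intronic reads were counted is not given in the sources used here, and the matrices were not corrected for free RNA. Each library pools 3 tumors, so 1 library stands for each group and no test was made.

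Barcodes with over 100 UMIs and under 20% mitochondrial UMIs were kept, as in the study's methods. Both libraries were clustered together with Seurat 5.3.0 in R 4.3.3 (2000 variable genes without the receptor and pathway genes, 20 principal components, resolution 0.5), then again within clusters with and without *Ptprc*. Class names were rebuilt from marker lists and are not the authors' annotation. The doublet caller Scrublet (scanpy 1.11.5) separated few cells, so none were removed, and removal of the top 6% by score was an alternative. UMIs were summed per class and library, and 95% Poisson, binomial and ratio intervals were exact (scipy 1.17.1). For shares of cells, each cell was also thinned to 2000 UMIs, leaving out 1009 UT and 653 BUP cells below that depth. Differences were compared where both libraries together held at least 20 UMIs. The Poisson and ratio intervals, the direction of change and the detection call were tested on simulated counts with a known free-RNA fraction. The other steps were not tested in this way.

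Genes named are receptor genes detected in at least 1 class, the 4 CGRP and adrenomedullin genes and those the study blocked, and a few undetected partners were named after their values were seen. The receptor genes, lists and rules were chosen with earlier results of these data known. All 93 receptor genes matched GENCODE M39 by identifier. Alternatives changed the UMI minimum, the background level, the cell filter, doublet removal, the scaling and the fold. Results on a few genes are not reported here.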

Additional observations from a re-analysis of the deposited data

Results flagged for a closer look

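*Gria3*, an AMPA receptor subunit gene, passed in no class compared above, but stood at 148 CPM (112 to 192) in UT and 93.1 CPM (60.3 to 137) in BUP in a cluster that the comparisons left out. This cluster was led by genes of plasmacytoid dendritic cells and B cells together (*Siglech* and *Cd79a*), and *Gria3* UMIs lay in 20 of its 42 UT cells and 14 of its 38 BUP cells.

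*Ramp3* pointed in opposite directions in different classes: on the log2 scale BUP over UT stood at 1.49 in C1q macrophage-like cells, -1.93 in cDC1-like cells and -1.37 in the Ctsk and Mgl2 cluster. With 1 library per group the difference between classes was not tested. In cDC1-like cells markers of migratory DC-like cells were lower in BUP as well (*Ccl22* 21.8 CPM in UT and 14.9 in BUP). In C1q macrophage-like cells the monocyte markers *Plac8* (150 CPM in UT and 252 in BUP), *Ccr2*, *Ace* and *Adgre4* were higher in BUP. *Ly6c1* and *Ly6c2* were lower there. The part of these markers in the *Ramp3* values of both classes was not tested. The markers of the Ctsk and Mgl2 cluster also differed between the libraries (*Ctsk* 472 CPM in UT and 5478 in BUP, *Cd209a* 551 and 252), so its values do not compare the same mixture of cells.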

How the results depend on the processing

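The count of 18 detected receptor genes became 35 with no minimum of UMIs, 26 with at least 5 UMIs and 15 with at least 20 UMIs, where *Gabrd*, *Chrna9* and *Ramp2* were lost. It was 18 under the stricter cell filter, the doubled free-RNA level, the opposite compartment as background and removal of the highest doublet scores, while the 86 pairs of gene and class became 54 under the stricter filter, 73 with the doubled free-RNA level, 73 with the opposite compartment (69 of them shared with the 86) and 86 without the highest doublet scores (85 shared). The 15 pairs past 2-fold became 5 with at least 50 UMIs, 36 at a fold of 1.5, and 5 among detected pairs only, an alternative chosen after seeing the data. They were 16 with median-ratio scaling, 16 with the stricter filter and 13 without the highest doublet scores. For single genes in their highest class, thinning to 2000 UMIs moved 5 of 16 log2 ratios past their counting interval, and the other alternatives moved none of 18. No paired analysis was possible because each group has 1 library, and for the same reason no replicate could be left out.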
